A study of Schizosaccharomyces pombe with 16 samples.

Results

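The proteasome and ubiquitin-conjugating genes of fission yeast (Schizosaccharomyces pombe) are described here across 8 groups of strain, nitrogen supply and temperature. Members were all probe sets whose symbol in the platform's gene table starts with rpn, rpt, pre, pup, ubc or ubi followed by a number, together with pts1, pam1, mts2, mts4, cdc48, ufd1 and npl4. The rule found 46 of 4999 probe sets, which name 46 genes, since ubi3 has 2 probe sets and rpn501 and rpn502 share 1. Of the 46, 28 belong to the proteasome (9 core, 11 base and 8 lid subunits), 11 are conjugating enzymes, 4 measure ubiquitin genes and 3 the Cdc48 complex. The gene mts2 was present as rpt2, and core subunits without a probe set in that table are not analysed here.

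The study profiled polyadenylated RNA on Affymetrix arrays in wild type (strain L972) and in the mutant fcp1-452, whose allele of fcp1 is temperature-sensitive. Fcp1 is the phosphatase that acts on the tail of RNA polymerase II. The medium was EMM2, a defined minimal medium that supplies nitrogen (+N), or EMM2-N, which lacks it (-N), and the temperature 26 or 37 °C. With nitrogen, wild type at both temperatures and fcp1-452 at 26 °C are labelled as growing logarithmically, whereas fcp1-452 at 37 °C is labelled as incubated. Merging 4 pairs of near-identical arrays left 12 samples, 2 for every +N group and 1 for every -N group. The labels state neither the hours at 37 °C or in EMM2-N nor whether replicates were separate cultures, so p-values reflect only sample-to-sample spread, possibly technical.

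The proteasome degrades proteins that carry ubiquitin chains. Its barrel-shaped core holds the proteolytic sites. A regulatory particle caps it, with a base of ATPases that unfold the substrate and a lid that takes off the ubiquitin. Ubiquitin is activated by one enzyme, passed to a conjugating enzyme and placed on the substrate with the help of a ligase. Cdc48 with Ufd1 and Npl4 pulls ubiquitinated proteins out of complexes and membranes and hands them on. In budding yeast, proteasome genes share a transcriptional control, and damaged protein raises them together.

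All values are log2 ratios of a probe set to its own median over the 8 arrays of the second set, so 0 is that median. They hold no absolute level, and no gene's level is set against another's. Where 2 values are given for a group, they are replicates 1 and 2. Differences are log2 differences ± SE from limma, with n = 2 per group with nitrogen and n = 1 per group without. A member is said to rise, fall or be called when its Benjamini-Hochberg adjusted p from limma over all 4999 probe sets was under 0.05.

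Known marker genes were read first. The starvation genes mei2 and isp5 were higher in each -N sample than in any +N sample: mei2 lay between 2.97 and 5.34 without nitrogen. The small heat shock gene hsp16 stood at 4.002 and 4.16 in fcp1-452 at 37 °C with nitrogen, but at 0.29 and 2.83 in wild type, so the wild-type replicates differed in this heat marker. The replicates of wild type also stood apart at mfm2, a pheromone gene of M cells (5.24 and -0.03 in wild type at 26 °C, 5.16 and 0.40 in wild type at 37 °C, 0.18 and -0.36 in fcp1-452 at 26 °C and -3.14 and -1.88 in fcp1-452 at 37 °C). The P cell pheromone gene map2 was at 6.57 in starved fcp1-452 at 26 °C and -0.33 in starved wild type, so mating-type genes differed with the strain. Without nitrogen 7 of 7 M cell probe sets were lower and 2 of 3 P cell probe sets higher in fcp1-452. The labels give no mating type, and the part of these differences in the results below was not tested. In bulk samples fewer cells of a type and less RNA per cell cannot be told apart. Because the wild-type replicates differed at hsp16 and mfm2, counts are also given with both wild-type samples of 1 replicate with nitrogen left out. Either replicate 1 or replicate 2 was left out, which leaves 1 residual degree of freedom in the fit. For comparisons within fed fcp1-452 or among starved samples this cannot change a difference. There it changes only the estimated spread, and so the counts. Those counts do not bear on the strain difference at mating-type genes, since both wild-type replicates are of the same strain. The transcript of fcp1 itself was not called between the strains at 37 °C with nitrogen (-0.24 ± 0.12, adjusted p = 0.169).

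**Figure D1:**
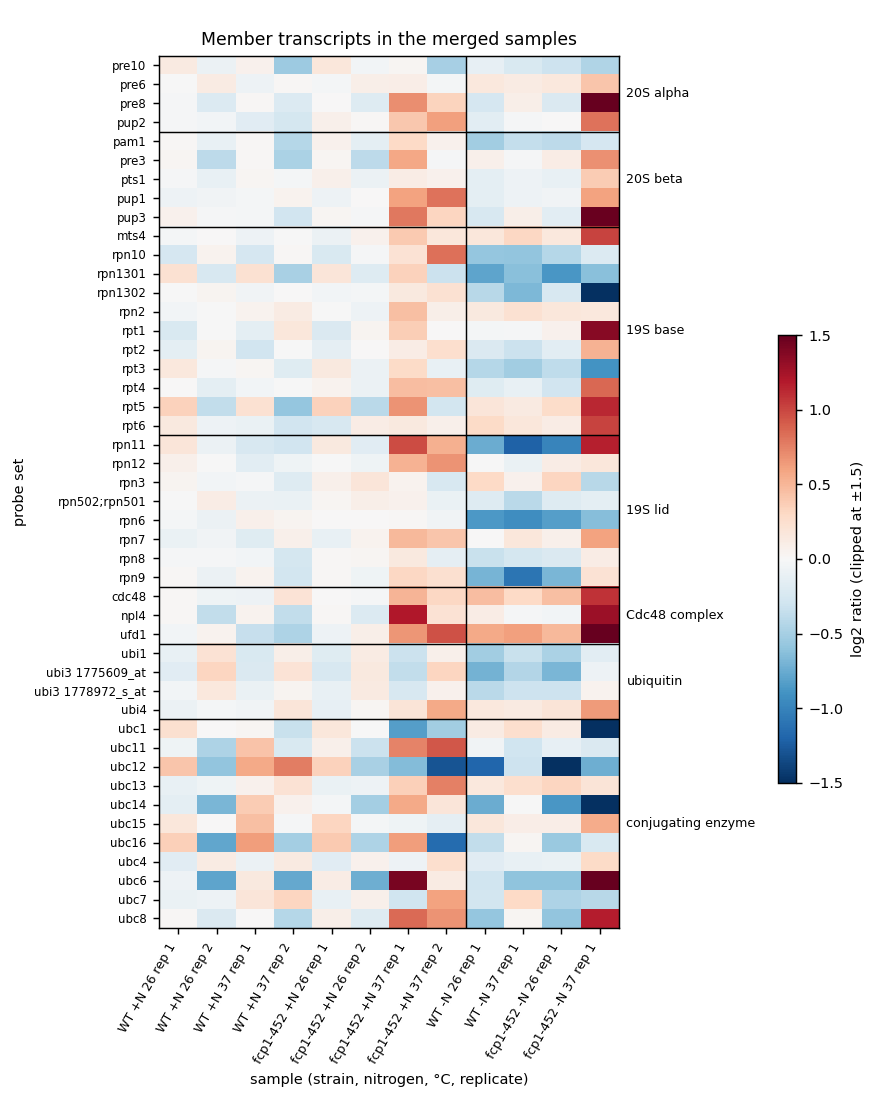
Each row is 1 of the 46 member probe sets, grouped by role, and each column 1 of the 12 merged samples; colour is the log2 ratio described above, clipped at ±1.5. Replicate 1 of fcp1-452 at 37 °C with nitrogen and the single starved sample of fcp1-452 at 37 °C are red for most core, base and Cdc48 members. Replicate 2 with nitrogen is paler, with medians of 0.07 for the core and 0.08 for the base. Conjugating enzymes are red or blue gene by gene.

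No member was called for the shift of wild type from 26 to 37 °C with nitrogen. Limma called 0 of 46, against 0.54% of all probe sets in either direction. An unadjusted p under 0.05 was found for 3 members, beside 1029 of all 4999 probe sets. The median difference was -0.09 over the 28 proteasome members, with a range of -0.31 to 0.13. It was 0.23 over the 11 conjugating enzymes (-0.28 to 0.75) and 0.01 over all probe sets. The widest value belonged to ubc12, the conjugating enzyme for the ubiquitin-like protein NEDD8, at 0.75 ± 0.29, adjusted p = 0.224; the change within replicates 1 and 2 was 0.15 and 1.36, so replicate 2 supplied most of it.

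The same shift in fcp1-452 raised members of every role. Of 46 members 18 rose and 1 fell, against 17.8% and 22.1% of all probe sets. Among the 28 proteasome members 10 rose and none fell: 5 of 9 core, 2 of 11 base and 3 of 8 lid subunits. The proteasome median was 0.26, beside -0.04 for all probe sets. Conjugating enzymes rose in 5 of 11 and fell in 1, with a median of 0.17 and a wider range (-0.90 to 1.08) than the proteasome (-0.30 to 0.77).

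Among the core subunits, pup1, which in budding yeast carries the trypsin-like site, had log2 ratios of -0.08 and -0.05 in wild type at 26 °C, -0.03 and 0.05 in wild type at 37 °C, -0.07 and 0.01 in fcp1-452 at 26 °C and 0.60 and 0.82 in fcp1-452 at 37 °C. Both mutant samples at 37 °C stood above the other 6 samples with nitrogen. The rise was 0.74 ± 0.10, adjusted p = 0.00443. The alpha-ring subunit pre8 stood at -0.01 and -0.20 in wild type at 26 °C, 0.01 and -0.21 in wild type at 37 °C, 0.00 and -0.20 in fcp1-452 at 26 °C and 0.70 and 0.33 in fcp1-452 at 37 °C, again without overlap, and rose by 0.61 ± 0.10, adjusted p = 0.0077. The beta subunit pup3 was at 0.06 and -0.02 in wild type at 26 °C, -0.02 and -0.28 in wild type at 37 °C, 0.03 and -0.02 in fcp1-452 at 26 °C and 0.79 and 0.33 in fcp1-452 at 37 °C and rose by 0.55 ± 0.14, adjusted p = 0.0236; its 2 mutant samples at 37 °C were the highest of the 8. The core subunits pup2 (0.47 ± 0.12) and pre3 (0.46 ± 0.10, a proteolytic subunit) also rose. Of the 4 others, pre10 stood at -0.30 ± 0.14 and pre6 at 0.01 ± 0.11, and neither was called.

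In the lid, rpn11, the metalloprotease that removes ubiquitin from the substrate, was at 0.18 and -0.09 in wild type at 26 °C, -0.24 and -0.28 in wild type at 37 °C, 0.15 and -0.17 in fcp1-452 at 26 °C and 0.98 and 0.54 in fcp1-452 at 37 °C. The mutant samples at 37 °C were the 2 highest, and the wild-type samples at 37 °C the 2 lowest. Its rise in the mutant was 0.77 ± 0.13, adjusted p = 0.0075. The lid subunit rpn12 was at 0.08 and 0.00 in wild type at 26 °C, -0.16 and -0.06 in wild type at 37 °C, 0.00 and -0.07 in fcp1-452 at 26 °C and 0.52 and 0.67 in fcp1-452 at 37 °C and rose by 0.63 ± 0.11, adjusted p = 0.0086, with 0.53 and 0.74 within replicates 1 and 2. The lid subunit rpn7 rose too (0.48 ± 0.12), whereas rpn6 (-0.02 ± 0.10), rpn8 (-0.02 ± 0.12) and rpn3 (-0.22 ± 0.13) did not pass the test. In the base, the ubiquitin receptor rpn10 (0.65 ± 0.13) and the ATPase rpt4 (0.48 ± 0.11) rose; the other 9 base members lay between 0.02 and 0.31 and were not called.

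Both partners of Cdc48 rose. Ufd1 transcript was at -0.04 and 0.05 in wild type at 26 °C, -0.34 and -0.46 in wild type at 37 °C, -0.08 and 0.09 in fcp1-452 at 26 °C and 0.66 and 0.95 in fcp1-452 at 37 °C. The mutant samples at 37 °C were the highest and the wild-type samples at 37 °C the lowest, and the rise in the mutant was 0.80 ± 0.13, adjusted p = 0.007. For npl4 the ratios were 0.02 and -0.36 in wild type at 26 °C, 0.05 and -0.37 in wild type at 37 °C, 0.02 and -0.20 in fcp1-452 at 26 °C and 1.20 and 0.21 in fcp1-452 at 37 °C, and the rise was 0.80 ± 0.19, adjusted p = 0.0233; replicate 2 at 37 °C (0.21) lay far below replicate 1. The ATPase gene cdc48 itself was at 0.02 and -0.07 in wild type at 26 °C, -0.07 and 0.20 in wild type at 37 °C, 0.01 and -0.02 in fcp1-452 at 26 °C and 0.51 and 0.31 in fcp1-452 at 37 °C, with a difference of 0.42 ± 0.14, adjusted p = 0.061, which did not pass the test.

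Of the ubiquitin genes only ubi4, which encodes a chain of ubiquitin repeats, was called in this comparison. It stood at -0.09 and -0.03 in wild type at 26 °C, -0.05 and 0.18 in wild type at 37 °C, -0.12 and 0.03 in fcp1-452 at 26 °C and 0.19 and 0.56 in fcp1-452 at 37 °C and rose by 0.42 ± 0.12, adjusted p = 0.0328; its probe set is of a kind that may bind related transcripts. In ubi1 and ubi3 the ubiquitin is fused to a ribosomal protein. Their differences were -0.09 ± 0.10 for ubi1 and 0.02 ± 0.12 and -0.09 ± 0.10 for the 2 probe sets of ubi3, and none was called. Within each group, replicate 2 of ubi1 was higher than replicate 1 (-0.11 and 0.22 in wild type at 26 °C, -0.23 and 0.09 in wild type at 37 °C, -0.19 and 0.12 in fcp1-452 at 26 °C and -0.32 and 0.08 in fcp1-452 at 37 °C).

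Conjugating enzymes divided gene by gene. The enzyme ubc6, which in budding yeast is anchored in the endoplasmic reticulum membrane and acts in the disposal of misfolded proteins there, was at -0.07 and -0.79 in wild type at 26 °C, 0.15 and -0.77 in wild type at 37 °C, 0.11 and -0.73 in fcp1-452 at 26 °C and 1.43 and 0.12 in fcp1-452 at 37 °C. Within each replicate the mutant at 37 °C was the highest group, although its replicate 2 value lay below that of wild type in replicate 1, and ubc6 rose by 1.08 ± 0.16, adjusted p = 0.00535. The gene ubc8 was at 0.02 and -0.21 in wild type at 26 °C, 0.01 and -0.43 in wild type at 37 °C, 0.09 and -0.20 in fcp1-452 at 26 °C and 0.84 and 0.67 in fcp1-452 at 37 °C and rose by 0.81 ± 0.11, adjusted p = 0.00438, with no overlap. The gene ubc11, whose product acts in the destruction of mitotic cyclins, was at -0.06 and -0.46 in wild type at 26 °C, 0.43 and -0.23 in wild type at 37 °C, 0.08 and -0.32 in fcp1-452 at 26 °C and 0.75 and 0.93 in fcp1-452 at 37 °C and rose by 0.96 ± 0.21, adjusted p = 0.0153. The enzyme ubc13, which builds the ubiquitin chains used in tolerance of DNA damage, rose by 0.64 ± 0.13, and ubc14 by 0.65 ± 0.11. For ubc14 the difference in wild type was nearly the same, 0.64 ± 0.11, adjusted p = 0.061, without passing the test there. The one conjugating enzyme that fell was ubc1, at 0.25 and 0.00 in wild type at 26 °C, 0.04 and -0.34 in wild type at 37 °C, 0.17 and 0.00 in fcp1-452 at 26 °C and -0.83 and -0.53 in fcp1-452 at 37 °C and -0.76 ± 0.18, adjusted p = 0.0201. The general conjugating enzyme ubc4 did not pass the test (0.14 ± 0.10).

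The number of calls in fcp1-452 moved with single samples. The 19 became 3 without the replicate block, where calls over all probe sets went from 1995 to 593. Leaving out either fcp1-452 sample at 26 °C left few members called, and calls over all probe sets fell as well. Leaving out both wild-type samples of either replicate also lowered the count. It cannot change this difference, which uses fcp1-452 samples only, so that drop came through the estimated spread. The median of the proteasome members was 0.33 within replicate 1 and 0.18 within replicate 2, and 18 of the 28 were higher at 37 °C in both replicates.

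**Figure D2:**
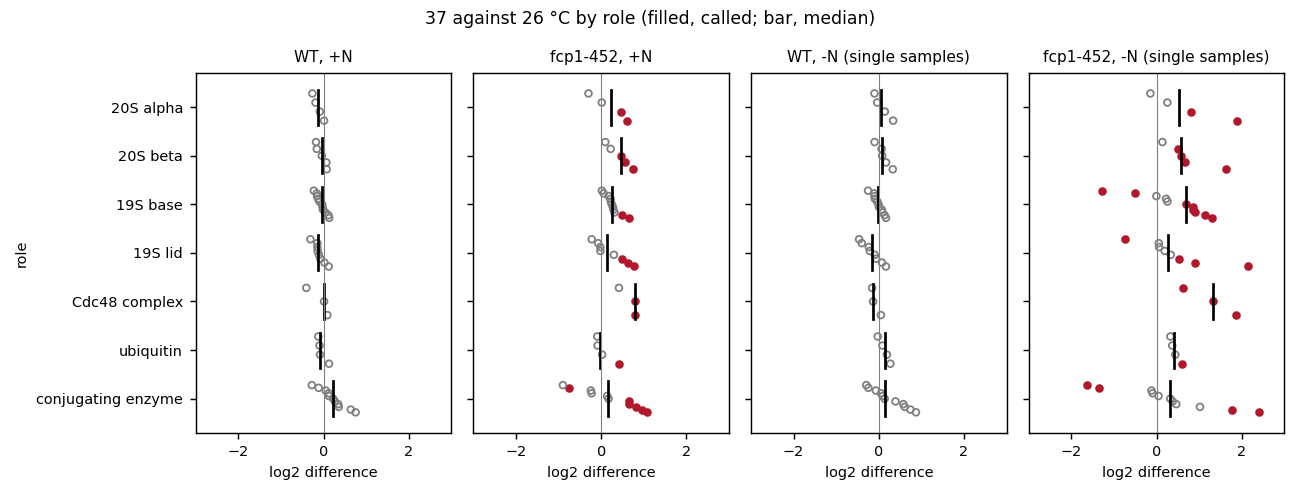
Each point is a member probe set, placed by its log2 difference between 37 and 26 °C; rows are roles, filled red points were called, open points were not, and the black bar is the median of the role. The 2 wild-type panels show no filled point, while the fcp1-452 panels hold 19 filled points with nitrogen and 26 without; values without nitrogen compare single samples.

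Comparing the strains directly with nitrogen asked where the mutant stands at each temperature. At 26 °C limma called 0 of 46 members and 0.0% of all probe sets, and member differences lay between -0.12 and 0.17. No member had an unadjusted p under 0.05, beside 19 of all probe sets. At 37 °C, 19 members were higher in fcp1-452 and 1 was lower, against 14.7% and 19.2% of all probe sets. Proteasome members were higher in 14 of 28 and lower in none: 6 of 9 core, 4 of 11 base and 4 of 8 lid subunits, with a median of 0.33 beside -0.04 for all probe sets. Core and lid together were higher in 10 of 17 (median 0.39, range -0.08 to 1.02). Conjugating enzymes were higher in 3 of 11 and lower in 1, with a median of 0.07 and a range of -1.64 to 1.08.

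The largest excess belonged to ufd1 (1.21 ± 0.13, adjusted p = 0.00346), followed by ubc6 (1.08 ± 0.16) and rpn11 (1.02 ± 0.13, adjusted p = 0.00472), whose values in each sample are given above. Next came ubc8 (0.97 ± 0.11), npl4 (0.86 ± 0.19) and ubc11 (0.74 ± 0.21). Members called higher here and not called for the temperature shift in the mutant were pam1 (0.39 ± 0.12), rpt2 (0.33 ± 0.10), rpt5 (0.37 ± 0.11) and rpn9 (0.39 ± 0.11). The one member that was lower in the mutant was ubc12, at 0.42 and -0.59 in wild type at 26 °C, 0.56 and 0.77 in wild type at 37 °C, 0.35 and -0.49 in fcp1-452 at 26 °C and -0.65 and -1.29 in fcp1-452 at 37 °C. Its wild-type samples were the highest at 37 °C and its mutant samples the lowest, and the difference was -1.64 ± 0.29, adjusted p = 0.0114. The 20 calls became 5 without the replicate block and 11 after quantile normalization, where ubc12 was not among them. Over all probe sets 1698 calls became 340 and 617. Almost no member was called without both wild-type samples of either replicate, and few without either wild-type sample at 37 °C. Leaving out either mutant sample at 26 °C lowered the count less. Calls over all probe sets fell in each of these fits.

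The interaction of strain and temperature tested whether the mutant's shift differed from that of wild type. It was called for 5 members, all more positive in fcp1-452, against 4.12% more positive and 7.68% more negative among all probe sets. They were ufd1 (1.21 ± 0.18, adjusted p = 0.0223), rpn11 (1.08 ± 0.18, adjusted p = 0.0263), ubc8 (0.93 ± 0.16, adjusted p = 0.0265), rpn12 (0.78 ± 0.16, adjusted p = 0.037) and pup1 (0.67 ± 0.14, adjusted p = 0.0417). Within replicates 1 and 2 the interaction was 1.04 and 1.38 for ufd1, 1.25 and 0.91 for rpn11 and 0.76 and 1.09 for ubc8. The value for ubc12 was the most negative, -1.65 ± 0.41, adjusted p = 0.0556, and did not pass. The call was lost for all 5 without the replicate block, after quantile normalization, without both wild-type samples of either replicate, and without any one sample at 26 °C or wild-type replicate 2 at 37 °C. Over all probe sets 590 calls became 7 without the block and 4 after quantile normalization. Without wild type at 37 °C replicate 1 there was 1 call, which was negative. Without fcp1-452 at 37 °C replicate 1 or 2 there were 14 and 17, and 11 for the 16 arrays with a set term.

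**Figure D3:**
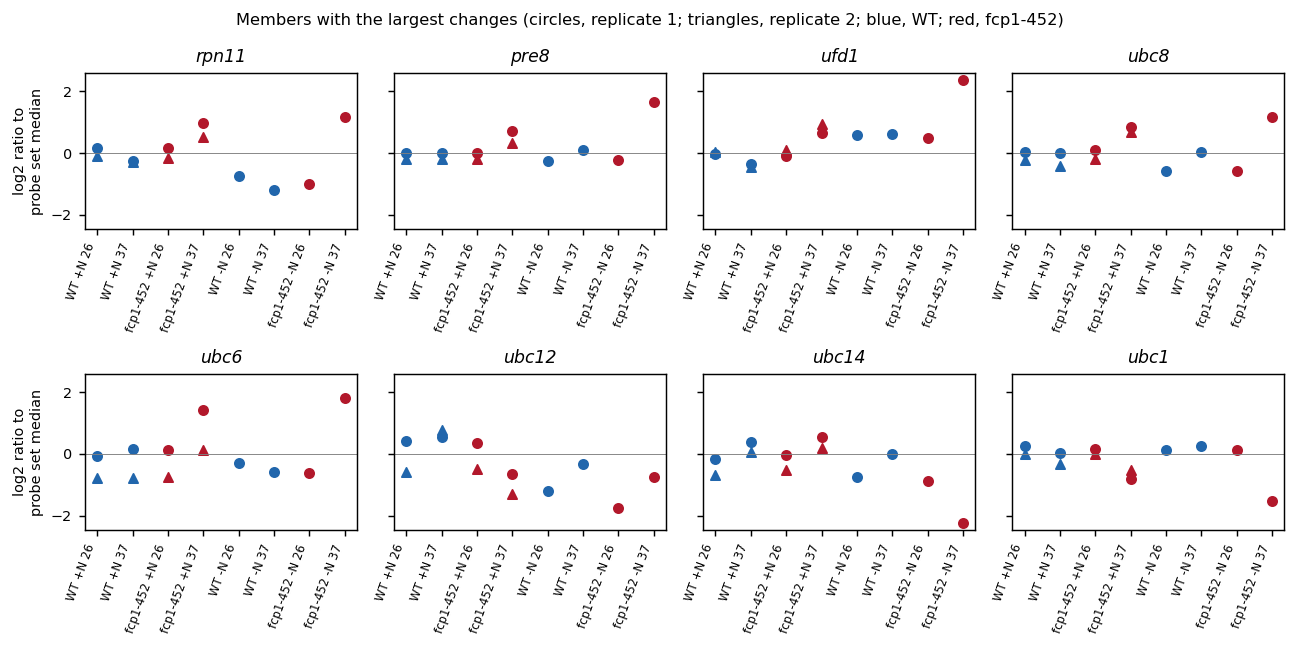
Each panel shows 1 member, with the 8 groups on the horizontal axis and the log2 ratio on the vertical axis; circles are replicate 1, triangles replicate 2, blue wild type and red fcp1-452. In the panels of rpn11, pre8, ufd1, ubc8 and ubc6 the starved mutant at 37 °C is the highest sample, and in those of ubc14 and ubc1 it is the lowest.

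Nitrogen starvation at 26 °C lowered more members than it raised. This contrast of both strains was added after the values were seen, because starved fcp1-452 at 37 °C stood apart from the other starved samples. All -N samples are of replicate 1, so the replicate block places the +N groups at the level of replicate 1, and the test assumes that single samples vary like the replicated groups. Of 46 members 17 fell and 4 rose, against 35.5% and 29.4% of all probe sets. The share that fell was thus near the background. Proteasome members fell in 9 of 28 and rose in none: 2 core, 3 base and 4 of the 8 lid subunits, with a median of -0.19 beside -0.07 for all probe sets. Conjugating enzymes fell in 5 of 11 and rose in 1 (median -0.16).

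The largest proteasome fall was that of rpn1301, one of a pair of genes for the ubiquitin receptor Rpn13. With nitrogen it was at 0.23 and -0.24 in wild type at 26 °C, 0.22 and -0.48 in wild type at 37 °C, 0.18 and -0.19 in fcp1-452 at 26 °C and 0.35 and -0.33 in fcp1-452 at 37 °C, and without at -0.80 in wild type at 26 °C, -0.63 in wild type at 37 °C, -0.88 in fcp1-452 at 26 °C and -0.62 in fcp1-452 at 37 °C. All 4 starved samples lay below every sample with nitrogen, and the difference at 26 °C was -1.11 ± 0.12, adjusted p = 0.000608. Lid subunits followed: rpn11 (-1.02 ± 0.12, adjusted p = 0.000867), rpn6 (-0.84 ± 0.09), rpn9 (-0.73 ± 0.10) and rpn8 (-0.34 ± 0.11). Without nitrogen rpn6 was at -0.87 in wild type at 26 °C, -0.93 in wild type at 37 °C, -0.83 in fcp1-452 at 26 °C and -0.64 in fcp1-452 at 37 °C, below its -0.09 to 0.08 with nitrogen. The lid subunit rpn9 was at -0.69 in wild type at 26 °C, -1.10 in wild type at 37 °C, -0.68 in fcp1-452 at 26 °C and 0.22 in fcp1-452 at 37 °C; the starved mutant at 37 °C left the level of the other 3.

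Among the conjugating enzymes, ubc12 (-1.68 ± 0.27, adjusted p = 0.0029), ubc16 (-0.95 ± 0.21) and ubc14 (-0.68 ± 0.10) fell. Without nitrogen ubc12 was at -1.18 in wild type at 26 °C, -0.32 in wild type at 37 °C, -1.75 in fcp1-452 at 26 °C and -0.73 in fcp1-452 at 37 °C, and both starved samples at 26 °C lay under the -0.59 to 0.42 spanned by the samples with nitrogen at that temperature. For ubc16 the starved wild-type value at 26 °C (-0.36) lay between the 2 fed replicates (0.36 and -0.78). Its starved value in fcp1-452 (-0.56) lay below both fed replicates (0.39 and -0.46). Ubc8 (-0.65 ± 0.10) also fell, and ubc13 rose (0.40 ± 0.12). Ubc6 was called lower at -0.56 ± 0.15, but its starved values at 26 °C (-0.30 in wild type and -0.61 in fcp1-452) lay between the 2 fed replicates of the same strain, and without the replicate block its difference was -0.084 and was not called.

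Genes for ubiquitin itself split. The fusion genes ubi1 (-0.34 ± 0.09) and ubi3 (-0.46 ± 0.11 and -0.28 ± 0.09 for its 2 probe sets) fell, while ubi4 rose (0.33 ± 0.11, adjusted p = 0.0358). Without nitrogen ubi1 was at -0.53 in wild type at 26 °C, -0.34 in wild type at 37 °C, -0.48 in fcp1-452 at 26 °C and -0.15 in fcp1-452 at 37 °C, and ubi4 at 0.16 in wild type at 26 °C, 0.14 in wild type at 37 °C, 0.20 in fcp1-452 at 26 °C and 0.64 in fcp1-452 at 37 °C. In the Cdc48 complex, cdc48 rose by 0.46 ± 0.13, adjusted p = 0.0228 and ufd1 by 0.58 ± 0.12, adjusted p = 0.00745, but npl4 was at -0.08 ± 0.18 and was not called. Starved samples of cdc48 were at 0.46 in wild type at 26 °C, 0.30 in wild type at 37 °C, 0.45 in fcp1-452 at 26 °C and 1.08 in fcp1-452 at 37 °C, and of ufd1 at 0.57 in wild type at 26 °C, 0.62 in wild type at 37 °C, 0.49 in fcp1-452 at 26 °C and 2.36 in fcp1-452 at 37 °C. For both genes the starved mutant at 37 °C was the highest sample, and for ufd1 the other 3 starved samples lay together between 0.49 and 0.62. The 21 calls became 4 after quantile normalization, where ubi1 and the first probe set of ubi3 lost their direction, and 6 without the replicate block. Over all probe sets 3243 calls became 1701 and 2108. Leaving out 1 sample at 26 °C, or both wild-type samples of either replicate, also lowered the count.

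**Figure D4:**
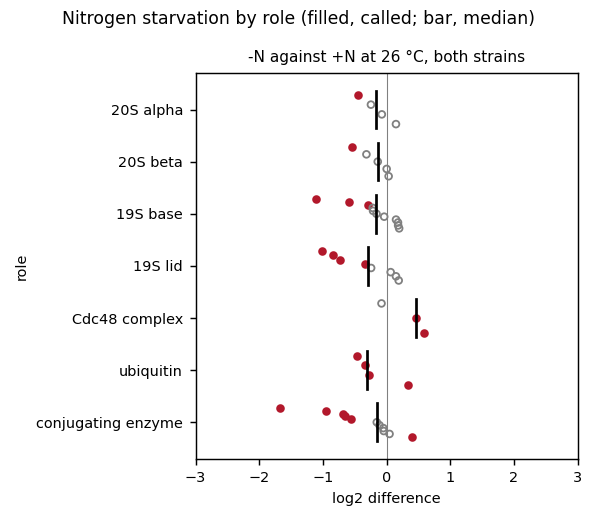
Each point is a member, placed by its log2 difference between starved and fed cells at 26 °C averaged over both strains; filled red points were called, open points were not, and the bar is the median of the role. The conjugating enzymes reach furthest to the left, with ubc12 at -1.68, and 2 of 3 Cdc48 complex members lie to the right of 0.

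Averaged over both strains and both temperatures, starvation lowered 16 members and raised 6, against 38.2% and 33.9% of all probe sets. In the base, 4 fell and 3 rose. Rpt1 (0.40 ± 0.13), rpt6 (0.41 ± 0.12) and mts4 (0.36 ± 0.09, the base scaffold Rpn1) rose. The receptors rpn1301 (-0.98 ± 0.09), rpn1302 (-0.72 ± 0.07) and rpn10 (-0.32 ± 0.09) and the ATPase rpt3 (-0.71 ± 0.08) fell. Without nitrogen rpt6 was at 0.28 in wild type at 26 °C, 0.17 in wild type at 37 °C, 0.11 in fcp1-452 at 26 °C and 1.01 in fcp1-452 at 37 °C. Mts4 was at 0.18 in wild type at 26 °C, 0.31 in wild type at 37 °C, 0.16 in fcp1-452 at 26 °C and 1.01 in fcp1-452 at 37 °C, and rpt1 at -0.02 in wild type at 26 °C, -0.02 in wild type at 37 °C, 0.06 in fcp1-452 at 26 °C and 1.36 in fcp1-452 at 37 °C. In all 3 the starved mutant at 37 °C was the highest of the 12 samples. The largest rises were ufd1 (0.96 ± 0.09, adjusted p = 0.000264) and cdc48 (0.46 ± 0.10), and the largest falls ubc12 (-1.17 ± 0.21) and ubc14 (-1.16 ± 0.08, adjusted p = 7.69e-05). The 22 calls became 13 without the replicate block and 9 (1 higher and 8 lower) after quantile normalization, where rpn10 turned to 0.13. Over all probe sets 3607 calls became 2756 and 1870. The count also fell without wild type at 37 °C replicate 1, without fcp1-452 at 26 °C replicate 1, and without both wild-type samples of either replicate.

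Whether starvation acted alike in both strains was tested by the interaction of strain and nitrogen, averaged over temperatures. It was called for 2 members, 1 more positive and 1 more negative, against 8.84% and 8.54% of all probe sets. Pre8 was more positive in fcp1-452 (0.50 ± 0.13, adjusted p = 0.0485) and ubc14 more negative (-1.33 ± 0.13, adjusted p = 0.0121). The value for pre8 turned to -0.034 after quantile normalization, and its call was lost without the replicate block, with the 16 arrays and a set term, with robust eBayes, and without any one sample at 26 °C or of wild type at 37 °C. The interaction of temperature and nitrogen was called for 9, with 6 more positive and 3 more negative at 37 °C, against 19.3% and 17.6%. The positive ones were ubc8 (0.84 ± 0.14), pre8 (0.80 ± 0.13), pup3 (0.79 ± 0.17), ufd1 (0.76 ± 0.16), rpn11 (0.62 ± 0.16) and 1 probe set of ubi3 (0.47 ± 0.14). The negative ones were ubc14 (-0.95 ± 0.13), rpn1302 (-0.86 ± 0.12) and ubc11 (-0.83 ± 0.25). After quantile normalization both counts were 0, against 0 and 240 of all probe sets. Without the replicate block they were 0 and 1, against 1 and 325. Almost no call was left without both wild-type samples of either replicate. Leaving out the samples with nitrogen in turn moved these counts widely. No starved sample was left out, since each is the only sample of its group.

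The starved mutant at 37 °C stood apart from the other starved samples. Of the 46 members, 22 had their highest value of all 12 samples there, beside 26.9% of all probe sets, and these included 14 of 28 proteasome members. Averaged over strains, 37 °C without nitrogen raised 14 members and lowered 3, against 24.3% and 21.8% of all probe sets. Averaged over temperatures, 14 were higher and 3 lower in fcp1-452 without nitrogen, against 18.8% and 18.6%. These averages use starved samples only, so leaving out wild-type samples with nitrogen kept the differences and changed only the estimated spread. Fewer calls were left, which says nothing about the wild-type replicate difference at hsp16 and mfm2. Each strain was then taken by itself, in contrasts added after the values were seen. In starved wild type limma called 0 of 46 members at 37 against 26 °C and 3.1% of all probe sets. An unadjusted p under 0.05 was found for 4 members, beside 973 of all probe sets. The proteasome median there was -0.02. In starved fcp1-452, 21 members rose and 5 fell, against 29.5% and 27.4%. Proteasome members rose in 15 of 28 and fell in 3, with a median of 0.51 and a range of -1.28 to 2.16. Conjugating enzymes rose in 2 of 11 and fell in 2, between -1.64 and 2.42.

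The largest rise in starved fcp1-452 was that of ubc6, at -0.30 in wild type at 26 °C, -0.60 in wild type at 37 °C, -0.61 in fcp1-452 at 26 °C and 1.81 in fcp1-452 at 37 °C without nitrogen, a difference of 2.42 ± 0.23, adjusted p = 0.000827. Rpn11 was at -0.75 in wild type at 26 °C, -1.21 in wild type at 37 °C, -0.995 in fcp1-452 at 26 °C and 1.16 in fcp1-452 at 37 °C: 3 starved samples lay below every sample with nitrogen, and the starved mutant at 37 °C above them all. Its difference between temperatures was 2.16 ± 0.18, adjusted p = 0.000653. Pre8 was at -0.25 in wild type at 26 °C, 0.09 in wild type at 37 °C, -0.21 in fcp1-452 at 26 °C and 1.67 in fcp1-452 at 37 °C (1.88 ± 0.15), ubc8 at -0.58 in wild type at 26 °C, 0.03 in wild type at 37 °C, -0.59 in fcp1-452 at 26 °C and 1.17 in fcp1-452 at 37 °C (1.76 ± 0.16), and pup3 at -0.24 in wild type at 26 °C, 0.09 in wild type at 37 °C, -0.16 in fcp1-452 at 26 °C and 1.48 in fcp1-452 at 37 °C (1.64 ± 0.19). In all 3 genes starved fcp1-452 at 37 °C lay far above the other starved samples. For ubc8 the fed mutant samples at 37 °C stood at 0.84 and 0.67. The partners of Cdc48 rose here too, ufd1 by 1.87 ± 0.18, adjusted p = 0.000886 and npl4 by 1.32 ± 0.27, adjusted p = 0.00943, with npl4 at 0.12 in wild type at 26 °C, -0.02 in wild type at 37 °C, -0.04 in fcp1-452 at 26 °C and 1.28 in fcp1-452 at 37 °C, and cdc48 rose by 0.63 ± 0.20.

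The ATPase ring of the base moved in both directions. Rpt1 (1.30 ± 0.27), rpt4 (1.15 ± 0.15), rpt6 (0.90 ± 0.24), rpt5 (0.86 ± 0.15) and rpt2 (0.68 ± 0.14) rose, and so did mts4 (0.86 ± 0.18), while rpt3 fell (-0.51 ± 0.15). Without nitrogen rpt4 was at -0.18 in wild type at 26 °C, -0.11 in wild type at 37 °C, -0.28 in fcp1-452 at 26 °C and 0.86 in fcp1-452 at 37 °C, rpt5 at 0.18 in wild type at 26 °C, 0.14 in wild type at 37 °C, 0.27 in fcp1-452 at 26 °C and 1.14 in fcp1-452 at 37 °C and rpt2 at -0.22 in wild type at 26 °C, -0.32 in wild type at 37 °C, -0.16 in fcp1-452 at 26 °C and 0.52 in fcp1-452 at 37 °C. In each of the 3, starved fcp1-452 at 37 °C was the highest of the 4 starved samples. Rpt3 was at -0.43 in wild type at 26 °C, -0.52 in wild type at 37 °C, -0.39 in fcp1-452 at 26 °C and -0.90 in fcp1-452 at 37 °C, with that sample the lowest. The other proteasome falls were rpn1302, the second gene for Rpn13, at -0.42 in wild type at 26 °C, -0.67 in wild type at 37 °C, -0.24 in fcp1-452 at 26 °C and -1.52 in fcp1-452 at 37 °C (-1.28 ± 0.13, adjusted p = 0.00101), and the lid subunit rpn3, at 0.30 in wild type at 26 °C, 0.06 in wild type at 37 °C, 0.32 in fcp1-452 at 26 °C and -0.42 in fcp1-452 at 37 °C (-0.74 ± 0.18). The conjugating enzyme genes that fell were ubc1, at 0.12 in wild type at 26 °C, 0.26 in wild type at 37 °C, 0.12 in fcp1-452 at 26 °C and -1.52 in fcp1-452 at 37 °C (-1.64 ± 0.25, adjusted p = 0.00321), and ubc14, at -0.75 in wild type at 26 °C, 0.00 in wild type at 37 °C, -0.88 in fcp1-452 at 26 °C and -2.24 in fcp1-452 at 37 °C (-1.36 ± 0.15, adjusted p = 0.00115). For ubc1, rpn1302, ubc14, rpt3 and rpn3 that sample was the lowest of all 12. In the RefSeq gene table rpn3 and ubc4 are neighbouring coding genes, and ubc4 was at 0.38 ± 0.14, not called.

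The interaction of strain and temperature without nitrogen was called for 12 members more positive and 3 more negative in fcp1-452, against 17.1% and 16.9% of all probe sets. Besides ubc6 (2.71 ± 0.32, adjusted p = 0.0046) and rpn11 (2.62 ± 0.26, adjusted p = 0.00426) the positive ones were ufd1 (1.82 ± 0.26), pre8 (1.55 ± 0.21), npl4 (1.46 ± 0.39), pup3 (1.31 ± 0.27), rpn9 (1.30 ± 0.22), rpt1 (1.30 ± 0.38), ubc8 (1.15 ± 0.22), rpt4 (1.08 ± 0.21), rpt5 (0.90 ± 0.22) and rpt2 (0.78 ± 0.20). The negative ones were ubc14 (-2.10 ± 0.21, adjusted p = 0.00426), ubc1 (-1.78 ± 0.35) and rpn1302 (-1.02 ± 0.19). No member was called after quantile normalization in any contrast between starved samples, and at most 1 of all probe sets was called in each. Without the replicate block the 26 calls in starved fcp1-452 became 12 and the 15 of the interaction became 2. Leaving out both wild-type samples of either replicate with nitrogen lowered these counts as well. Differences between starved samples use no fed sample, so the block and the fed samples changed only the estimated spread. All of these values rest on 1 sample per group.

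The remaining values of members named in these tests follow. Without nitrogen pup1 was at -0.14 in wild type at 26 °C, -0.08 in wild type at 37 °C, -0.05 in fcp1-452 at 26 °C and 0.61 in fcp1-452 at 37 °C. Rpn12 was at -0.01 in wild type at 26 °C, -0.10 in wild type at 37 °C, 0.11 in fcp1-452 at 26 °C and 0.17 in fcp1-452 at 37 °C, so that its highest samples of all were the 2 of fed fcp1-452 at 37 °C. Ubc11 was at -0.05 in wild type at 26 °C, -0.30 in wild type at 37 °C, -0.12 in fcp1-452 at 26 °C and -0.21 in fcp1-452 at 37 °C, below its fed mutant samples at 37 °C throughout. With nitrogen ubc14 was at -0.15 and -0.68 in wild type at 26 °C, 0.38 and 0.06 in wild type at 37 °C, -0.03 and -0.52 in fcp1-452 at 26 °C and 0.57 and 0.19 in fcp1-452 at 37 °C, higher at 37 than at 26 °C in both strains and both replicates. Rpn1302 stood between -0.05 and 0.23 in all 8 fed samples, above its 4 starved ones. The first probe set of ubi3 was at -0.17 and 0.32 in wild type at 26 °C, -0.22 and 0.20 in wild type at 37 °C, -0.24 and 0.15 in fcp1-452 at 26 °C and -0.37 and 0.32 in fcp1-452 at 37 °C, with replicate 2 higher in each group as for ubi1. Without nitrogen it was at -0.71 in wild type at 26 °C, -0.44 in wild type at 37 °C, -0.68 in fcp1-452 at 26 °C and -0.08 in fcp1-452 at 37 °C. The second was at -0.04 and 0.16 in wild type at 26 °C, -0.10 and 0.04 in wild type at 37 °C, -0.12 and 0.13 in fcp1-452 at 26 °C and -0.24 and 0.07 in fcp1-452 at 37 °C with nitrogen and at -0.40 in wild type at 26 °C, -0.32 in wild type at 37 °C, -0.31 in fcp1-452 at 26 °C and 0.06 in fcp1-452 at 37 °C without. Fed samples ranged from -0.23 to 0.37 for rpt1, -0.29 to 0.26 for rpt2, -0.15 to 0.46 for rpt4, -0.58 to 0.68 for rpt5 and -0.27 to 0.31 for rpn9.

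The core and lid were set beside the conjugating enzymes. For 37 °C with nitrogen the median of the 17 core and lid members was -0.11 in wild type. There 0 were called, against 0.54% of all probe sets in either direction. In fcp1-452 it was 0.30, with 8 rising and none falling, against 17.8% and 22.1% of all probe sets. The 11 conjugating enzymes had medians of 0.23 in wild type and 0.17 in fcp1-452, where 5 rose and 1 fell. For starvation at 26 °C the core and lid median was -0.25, beside -0.07 for all probe sets and -0.16 for the conjugating enzymes. Between 37 and 26 °C in starved fcp1-452 it was 0.49, beside 0.05 for all probe sets and 0.32 for the conjugating enzymes. The conjugating enzymes reached further in both directions in each of these comparisons of fcp1-452, from -0.90 to 1.08 with nitrogen and from -1.64 to 2.42 without, against -0.30 to 0.77 and -0.74 to 2.16 for core and lid. The difference between the role groups was described and not tested.

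Over the 8 group means, proteasome members did not follow a single pattern. The correlation of each member with the mean of the 28 proteasome members, which contains the member itself, was highest for rpn11 (r = 0.971), rpt2 (r = 0.961) and rpt4 (r = 0.946), and lowest for rpn3 (r = -0.803) and pre10 (r = -0.348). The conjugating enzymes ubc6 (r = 0.922), ubc8 (r = 0.921) and ubc4 (r = 0.919) were as close to that mean as the core subunit pup2 (r = 0.913), whereas ubc1 ran against it (r = -0.904). Outside the members, the named probe sets most like the proteasome mean were sap49 (r = 0.993), cbp6 (r = 0.988) and ypt7 (r = 0.98). These are descriptions over 8 groups, 4 of them of 1 sample.

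Other ubiquitin genes, taken from lists chosen with earlier results of these data known, numbered 80 probe sets. With nitrogen none was called for 37 °C in wild type. In fcp1-452, 25 rose and 8 fell, against 17.8% and 22.1% of all probe sets, with a median of 0.23. The shares in the smaller lists are descriptions and were not tested. The list of genes that remove ubiquitin was matched by symbol or synonym and also holds pan2, a gene of another role. Of its 20 probe sets 9 rose and 1 fell, led by otu1 (1.36 ± 0.10), whose budding yeast counterpart works with Cdc48, and ubp4 (0.97 ± 0.13). Ubiquitin receptors and Cdc48 cofactors rose in 4 of 7 and fell in none, led by ubx3 (1.39 ± 0.23) and ubx4 (0.96 ± 0.11). Of the other proteasome genes 2 of 5 rose, the assembly chaperone ump1 (0.71 ± 0.15) and the proteasome-bound hydrolase uch2 (0.64 ± 0.16). The list of ligases and their adaptors holds ssm4, likewise of another role. Of its 33 probe sets 8 rose and 6 fell, shares near that background. They ran from slp1, an activator of the anaphase-promoting complex (-2.04 ± 0.31), to the F-box protein gene pof1 (1.49 ± 0.29). In wild type the same shift was 0.85 ± 0.13 for ubp4, 0.77 ± 0.23 for ubx3, 0.79 ± 0.29 for pof1 and -1.09 ± 0.31 for slp1. None of these 4 was called there, and none was called for the interaction of strain and temperature. Of the activating enzymes 1 of 4 rose, uba1, which starts the ubiquitin pathway (0.40 ± 0.10), and 1 fell, rad31 of the SUMO pathway (-1.55 ± 0.19). Conjugating enzymes with other names rose in 1 of 3, rhp6 (0.77 ± 0.15), and none of 8 SUMO and NEDD8 genes was called. Starvation at 26 °C raised 26 of the 80 and lowered 22, against 29.4% and 35.5% of all probe sets, so that these counts show nothing particular to the lists, with the ligase gene pub2 at 2.78 ± 0.12.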

How the data were processed

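Polyadenylated RNA was measured on 16 Affymetrix arrays in 2 sets. The deposited values are linear ratios that the authors made after RMA, per the submitters' processing notes, which give no version. Tested on the files, each probe set's values are relative to its median over the arrays of its set. Depth does not apply, and the number of arrays limits the precision. Ratios were taken to log2. In the groups with nitrogen, set 1 arrays were near-identical to replicate 1 of set 2, so each pair was shifted to one scale, averaged and counted as 1 sample, with the starved arrays of set 1 moved by that shift too. Limma 3.58.1 (R 4.3.3) was fitted to 4999 probe sets and 12 samples with group means and a replicate block, leaving 3 residual degrees of freedom. Same-numbered replicates deviated together: the replicate difference correlated between groups at r = 0.64 to 0.87. P-values were adjusted by Benjamini-Hochberg, with calls at 0.05. Of the 14 comparisons 10 were planned and 4 added after seeing the data.

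Symbols came from the platform's gene table, and names and neighbours from a RefSeq table. Members and lists were chosen with earlier results of these data known. Values in every sample, or their range, are given for up to 3 called members with the largest difference per direction and comparison, for called members against their role's direction, for members called in an interaction, and for the Cdc48 and ubiquitin genes. Genes outside the members are at most 2 per list, direction and comparison, beside label checks, list entries of another role and the probe sets most like the proteasome mean. Alternatives were no replicate block, 16 unmerged arrays, quantile normalization, median centring, a pseudocount of 0.1, robust eBayes and leaving out samples with nitrogen.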

Additional observations from a re-analysis of the deposited data

Results flagged for a closer look

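Member differences that themselves differed between groups, by an interaction term in limma, are listed with their log2 interaction. The temperature difference with nitrogen was more positive in fcp1-452 than in wild type for pup1 (0.67), rpn12 (0.78), ubc8 (0.93), rpn11 (1.08) and ufd1 (1.21). Without nitrogen, where each group has 1 sample, the same interaction was called for ubc14 (-2.10), ubc1 (-1.78), rpn1302 (-1.02), rpt2 (0.78), rpt5 (0.90), rpt4 (1.08), ubc8 (1.15), rpt1 (1.30), rpn9 (1.30), pup3 (1.31), npl4 (1.46), pre8 (1.55), ufd1 (1.82), rpn11 (2.62) and ubc6 (2.71). The starvation difference differed between strains for ubc14 (-1.33) and pre8 (0.50). It differed between temperatures for ubc14 (-0.95), rpn1302 (-0.86), ubc11 (-0.83), 1 probe set of ubi3 (0.47), rpn11 (0.62), ufd1 (0.76), pup3 (0.79), pre8 (0.80) and ubc8 (0.84). Their dependence on single samples is given with each result above, and the cause was not tested.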

How the results depend on the processing

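Calls over all probe sets moved too. Without the replicate block they went from 1995 to 593 for temperature in fcp1-452 with nitrogen and from 1698 to 340 for strain at 37 °C. After quantile normalization at most 1 of 4999 probe sets was called in each comparison among starved samples, so the loss there was array-wide. Counts of called members moved by over 1.5 times or crossed 0 as follows. Without the replicate block they were 3 for temperature in fcp1-452 with nitrogen, 5 for strain at 37 °C, 0 for the strain by temperature interaction with nitrogen, 13 for starvation averaged, 0 for strain by nitrogen, 1 for temperature by nitrogen, 2 for strain without nitrogen, 7 for temperature without nitrogen, 6 for starvation at 26 °C, 12 for temperature in starved fcp1-452 and 2 for the strain by temperature interaction without nitrogen. After quantile normalization they were 1 for temperature in wild type with nitrogen, 11 for strain at 37 °C, 0 for the strain by temperature interaction with nitrogen, 9 for starvation averaged, 0 for strain by nitrogen, 0 for temperature by nitrogen, 0 for strain without nitrogen, 0 for temperature without nitrogen, 4 for starvation at 26 °C, 0 for temperature in starved fcp1-452 and 0 for the strain by temperature interaction without nitrogen. With both wild-type replicate 2 samples left out, an alternative chosen after seeing the data, they were 7 for temperature in fcp1-452 with nitrogen, 0 for strain at 37 °C, 0 for the strain by temperature interaction with nitrogen, 13 for starvation averaged, 0 for strain by nitrogen, 1 for temperature by nitrogen, 6 for strain without nitrogen, 9 for temperature without nitrogen, 10 for starvation at 26 °C, 15 for temperature in starved fcp1-452 and 4 for the strain by temperature interaction without nitrogen. With both wild-type replicate 1 samples left out, also chosen after seeing the data, they were 7 for temperature in fcp1-452 with nitrogen, 1 for strain at 37 °C, 0 for the strain by temperature interaction with nitrogen, 10 for starvation averaged, 0 for strain by nitrogen, 0 for temperature by nitrogen, 6 for strain without nitrogen, 9 for temperature without nitrogen, 5 for starvation at 26 °C, 15 for temperature in starved fcp1-452 and 4 for the strain by temperature interaction without nitrogen. Either of these leaves 10 samples in the fit. For temperature in fcp1-452 with nitrogen and for comparisons among starved samples it kept the differences. Only the estimated spread changed there, so those counts say nothing about the wild-type replicates. With all 16 arrays and a set term the count was 11 for the strain by temperature interaction with nitrogen, and with robust eBayes 1 for strain by nitrogen. Leaving out each replicate in turn gave 0 to 1 for temperature in wild type with nitrogen, 1 to 23 for temperature in fcp1-452 with nitrogen, 4 to 23 for strain at 37 °C, 0 to 17 for the strain by temperature interaction with nitrogen, 13 to 30 for starvation averaged, 0 to 12 for strain by nitrogen, 4 to 20 for temperature by nitrogen, 10 to 26 for strain without nitrogen, 10 to 28 for temperature without nitrogen, 12 to 29 for starvation at 26 °C, 0 to 3 for temperature in starved wild type, 20 to 31 for temperature in starved fcp1-452 and 11 to 21 for the strain by temperature interaction without nitrogen. Single members reversed after quantile normalization: rpn10 for starvation averaged (0.13), pre8 for strain by nitrogen (-0.034), and, for starvation at 26 °C, ubi1 (0.027) and 1 probe set of ubi3 (0.008). Without the replicate block ubc6 reversed for starvation averaged (0.144). The causes were not tested. Comparisons without nitrogen rest on 1 sample per group, and no starved sample was left out in any alternative. The deposited ratios hold no signal over background.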
